A study of Homo sapiens with 6 samples.

Results

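The IFIT, OAS and MX genes encode antiviral effector proteins that cells make in response to interferon. The 10 genes described here were taken by name from the protein-coding genes of the deposited expression table, and are the 4 IFIT genes IFIT1, IFIT2, IFIT3 and IFIT5, the 4 OAS genes OAS1, OAS2, OAS3 and OASL, and the 2 MX genes MX1 and MX2. They are 10 of 19951 protein-coding genes and of 58735 genes in all. Their transcripts were compared in NCI-N87 cells, an established human gastric cancer cell line, between 3 control libraries (shNC, named shCtrl in the study) and 3 libraries of cells with an shRNA against SCAMP1 (shScamp1, named shS1#1 in the study). Lentivirus and polybrene were left on both kinds of cells for 24 h, puromycin at 2 μg/ml was used to select stable populations, and RNA was taken near 80% confluence. According to the study's methods the control lentivirus carried the empty vector, so the presence of a hairpin and the loss of SCAMP1 cannot be told apart in these libraries. A single SCAMP1 hairpin was sequenced. The replicates are called biological in the labels, but separate infections are not stated, so the p-values measure only the spread between these samples, which may be technical.

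Expression was given as FPKM, the fragments on a gene per kilobase of its length, scaled to the depth of the library. The length is that of all exon bases of a gene, over 1 annotated transcript for IFIT5 and up to 18 for MX1, so that orders of levels between genes depend on the annotated transcripts. Every value could be turned back into whole reads, which came to 15064905 to 15988700 reads on genes per shNC library and 14311769 to 14667628 per shScamp1 library. SCAMP1, the targeted gene, was lower in all 3 shScamp1 libraries by 86.0% on average (log2 fold change -2.78, limma adjusted p = 0.000248). Replicate 2 of shScamp1 stood apart from the other shScamp1 libraries, with 9.21% of its reads on mitochondrial genes against 6.09% to 6.78% in the other 5 libraries. It differed from shScamp1 replicates 1 and 3 by a chi-square of 49.5 and 38.7 per degree of freedom, respectively. Replicates 1 and 3 differed from each other by 3.32. All 8 epithelial markers were expressed in both groups, with sums of 5534 to 5818 FPKM in shNC and 9241 to 10154 FPKM in shScamp1 libraries. Most of the difference lay in the keratins KRT8, KRT18 and KRT19, which were higher in each shScamp1 library, whereas EPCAM and CLDN3 overlapped between the groups. The 9 leukocyte markers summed to at most 0.176 FPKM in any library, and both markers of plasmacytoid dendritic cells, the main interferon producers of blood, were at 0 in every shScamp1 library. The 4 fibroblast markers summed to 0.533 to 0.689 and 0.476 to 0.773 FPKM, and the 3 endothelial markers to 0.139 to 0.235 and 0.381 to 0.612 FPKM, in shNC and shScamp1 libraries respectively, with VWF making up most of the endothelial sum. The part of these shifts in the results was not tested.

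Interferons bind receptors at the cell surface, and the JAK kinases at these receptors phosphorylate STAT proteins. STAT2 and IRF9 are parts of a complex that binds the interferon-stimulated response element (ISRE) in the promoters of target genes, and IFIT, OAS and MX genes are textbook targets of it. IFIT proteins bind foreign RNA and hinder its translation, OAS enzymes answer double-stranded RNA by making the signalling oligoadenylate 2-5A, and MX proteins are dynamin-like GTPases that block the replication of many viruses. Epithelial cells express these genes at a low level at rest and strongly during infection.

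All 10 genes passed the filter on low expression and were higher in shScamp1 than in shNC cells, from 1.79-fold for IFIT5 to 6.07-fold for OAS2 as ratios of mean FPKM. Genes counted as differentially expressed had both an adjusted p under 0.05 and a log2 fold change above 1 or below -1. Of the 10 genes 9 met both limits, all higher, where 2.42% of the 15556 genes tested were called higher and 0.746% lower. IFIT5 missed the limit on the fold. With the limit on the adjusted p alone, 10 of the 10 were higher, against 8.82% of all genes tested. The FPKM of shNC and shScamp1 libraries did not overlap for any of the 10 with shScamp1 above, which held for 20.4% of all genes tested. The median log2 fold change was 1.88 over the 10 genes and -0.02 over all genes tested. By family the median log2 fold change was 1.78 for IFIT, 1.35 for OAS and 2.43 for MX. In bulk RNA, a larger share of cells with these transcripts and more transcript per cell cannot be told apart.

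**Figure D1:**
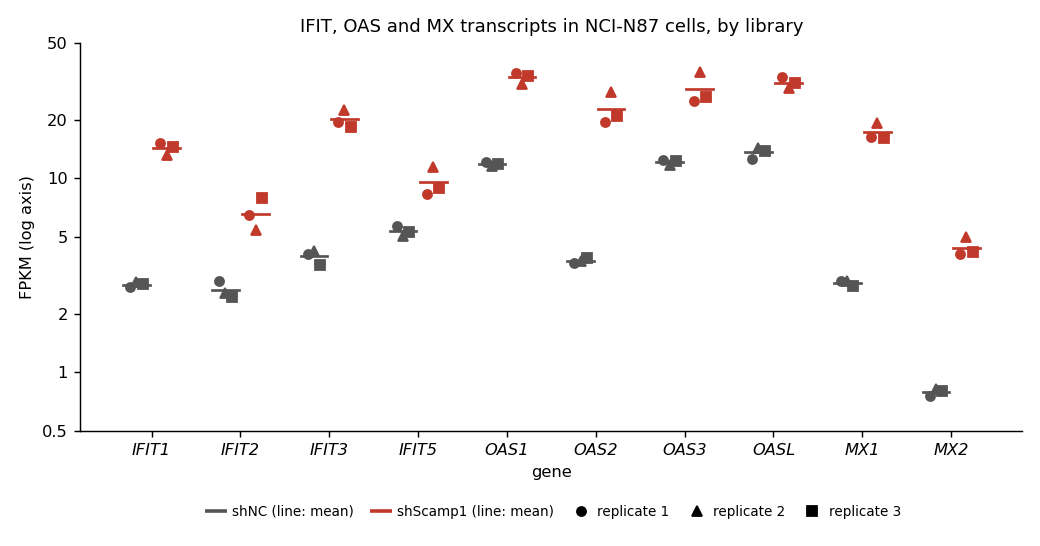
FPKM of the 10 genes (log axis) in each shNC library (grey) and each shScamp1 library (red), with symbols for the replicates and lines at the group means. For each gene the 3 red points lie above the 3 grey points.

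Promoter sequences from RefSeq (GRCh38.p14, 250 bases before to 50 bases after each annotated start) were searched for the letters of the ISRE. They were given for 6 of the 10 genes, in 9 windows, and IFIT2, OAS2, OASL and MX2 had none. The core of the ISRE was searched as GAAANNGAAA on both strands, so that a match on the reverse strand reads TTTCNNTTTC. It was found in 7 of the 9 windows and 5 of the 6 genes, whereas 3.57% of 35116 promoter windows and 4.38% of 27305 genes held it. The stretches of 30 bases that carry the matches are shown on the forward strand, 5′ to 3′, with the matches in capitals. Distances are from the first base of a match to the annotated start, and genes with several starts have them numbered.
IFIT1, chr10:89392504-89392533, matches 116 and 103 bases before the start: tagTTTCACTTTCcccTTTCGGTTTCccta
IFIT3 start 1, chr10:89327831-89327860, 156 bases before: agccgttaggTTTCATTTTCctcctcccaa
IFIT3 start 1, chr10:89327865-89327894, 122 bases before: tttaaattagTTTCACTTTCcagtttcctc
IFIT3 start 2, chr10:89332425-89332454, 94 bases before: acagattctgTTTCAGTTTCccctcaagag
IFIT3 start 2, chr10:89332468-89332497, 51 bases before: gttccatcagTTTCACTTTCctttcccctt
IFIT5, chr10:89414513-89414542, 45 bases before: ttctattaagTTTCGGTTTCtgaagcttac
IFIT5, chr10:89414547-89414576, 19 and 4 bases before: agTTTCGATTTCttaagTTTCAGTTTCtga
OAS3, chr12:112938321-112938350, 143 bases before: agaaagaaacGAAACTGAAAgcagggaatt
OAS3, chr12:112938452-112938481, 12 bases before: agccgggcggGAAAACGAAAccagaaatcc
MX1 start 1, chr21:41420559-41420588, 11 bases after: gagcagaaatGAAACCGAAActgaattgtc
MX1 start 3, chr21:41431844-41431873, 196 bases before: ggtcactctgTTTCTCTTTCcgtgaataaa

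The 4 IFIT windows each held at least 2 matches, all on the reverse strand, and IFIT5 held 3. In IFIT1 both matches fall within a single stretch and are separated by 3 bases, as the sequence shows. In OAS3 and MX1 start 1 the matches were on the forward strand, and in MX1 start 3 on the reverse strand. The core of the GAS, the gamma-activated sequence, was searched as TTCNNNGAA and was found in the windows of OAS1 (168 bases before the start) and MX1 start 3 (189 bases before, starting within the last letters of the ISRE match at 196), against 7.66% of all windows. The TATA box, searched as TATAAA on both strands, was found in 1 window, IFIT3 start 1, 30 bases before the start and on the reverse strand, against 11.5% of all windows. IFIT5, with 3 matches, had the smallest fold change of the 10 genes, and OAS1, with none in its window, had a log2 fold change of 1.47. A match is a description of letters and not of a bound site.

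**Figure D2:**
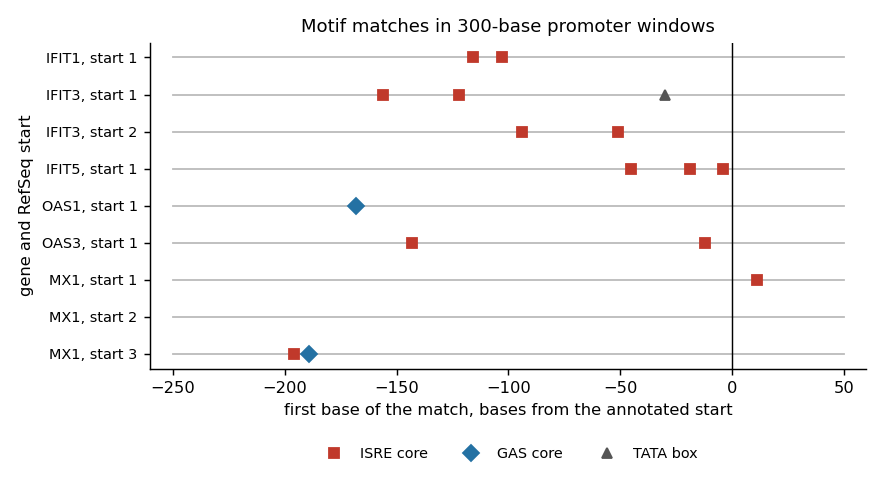
Positions of ISRE core (red squares), GAS core (blue diamonds) and TATA box (grey triangles) matches in the 9 promoter windows, in bases from the annotated start. ISRE matches lie within 200 bases before the start in 6 windows and 11 bases after it in MX1 start 1.

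The IFIT genes lie side by side on the forward strand of chromosome 10 (hg38). IFIT1 (ENSG00000185745, chr10:89392546-89406486), which binds RNA without the cap methylation of host RNA, was at 2.73, 2.93 and 2.83 FPKM in shNC libraries and at 15.1, 13.2 and 14.5 FPKM in shScamp1 libraries. The lowest shScamp1 library was thus far above the highest shNC library, on 200 to 1018 reads per library. On average it rose from 2.83 ± 0.0964 to 14.3 ± 0.993 FPKM (SD, n = 3 per group), or 2.29 on the log2 scale (SE 0.08, limma adjusted p = 0.000165). IFIT3 (ENSG00000119917, chr10:89327894-89340971), a partner that stabilises IFIT1, was at 4.09, 4.21 and 3.58 FPKM in shNC libraries and at 19.5, 22.6 and 18.4 FPKM in shScamp1 libraries. It reached a higher level than IFIT1 in each of the 6 libraries. Its mean rose from 3.96 ± 0.332 to 20.1 ± 2.16 FPKM (SD, n = 3 per group), or 2.32 on the log2 scale (SE 0.11, limma adjusted p = 0.000203). The 95% intervals of the log2 fold changes overlapped, from 2.10 to 2.48 for IFIT1 and from 2.06 to 2.57 for IFIT3, and their difference was not tested.

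IFIT2 (ENSG00000119922, chr10:89283694-89309276), which forms complexes with IFIT1 and IFIT3, was at 2.94, 2.58 and 2.43 FPKM in shNC libraries and at 6.44, 5.38 and 7.87 FPKM in shScamp1 libraries. It started at a level close to that of IFIT1 and ended below it in every shScamp1 library. Its mean rose from 2.65 ± 0.261 to 6.56 ± 1.25 FPKM (SD, n = 3 per group), or 1.27 on the log2 scale (SE 0.15, limma adjusted p = 0.00424). IFIT5 (ENSG00000152778, chr10:89414586-89421001), a family member that binds the triphosphate end of RNA on its own, was at 5.65, 5.05 and 5.30 FPKM in shNC libraries, the highest level of the family there. In shScamp1 libraries it was at 8.34, 11.5 and 8.87 FPKM, all above the shNC libraries, with replicate 2 highest. Its mean was 5.34 ± 0.303 and 9.56 ± 1.67 FPKM (SD, n = 3 per group), a difference of 0.82 on the log2 scale (SE 0.13, limma adjusted p = 0.0115) that did not reach the fold change threshold. The adjusted p of IFIT5 was above 0.05 without shNC replicate 2 (0.0589) and without shNC replicate 3 (0.0567). Summed over the 4 genes, IFIT transcripts were at 14.8 ± 0.631 FPKM in shNC and 50.5 ± 1.76 FPKM in shScamp1 cells (SD, n = 3 per group).

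OAS1, OAS3 and OAS2 lie in this order on the forward strand of chromosome 12, and OASL lies apart on the reverse strand. OAS1 (ENSG00000089127, chr12:112906777-112933222), a synthetase with a single catalytic unit, was at 12.1, 11.5 and 11.9 FPKM in shNC libraries and at 35.0, 30.7 and 33.7 FPKM in shScamp1 libraries. Its replicates were close together in both groups. Its group mean rose from 11.8 ± 0.286 to 33.1 ± 2.23 FPKM (SD, n = 3 per group), or 1.47 on the log2 scale (SE 0.07, limma adjusted p = 0.000248). OAS2 (ENSG00000111335, chr12:112978395-113011723), another 2-5A synthetase, was at 3.65, 3.74 and 3.89 FPKM in shNC libraries, the lowest OAS level there. In shScamp1 libraries it was at 19.5, 27.9 and 21.0 FPKM, with replicate 2 above the others. The mean rose from 3.76 ± 0.117 to 22.8 ± 4.45 FPKM (SD, n = 3 per group), or 2.55 on the log2 scale (SE 0.14, limma adjusted p = 0.000365).

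OAS3 (ENSG00000111331, chr12:112938352-112973249), the largest of the synthetases, was at 12.4, 11.7 and 12.2 FPKM in shNC libraries and at 25.1, 35.2 and 26.3 FPKM in shScamp1 libraries. As for OAS2, replicate 2 of shScamp1 was the highest. On average it rose from 12.1 ± 0.379 to 28.8 ± 5.52 FPKM (SD, n = 3 per group), or 1.23 on the log2 scale (SE 0.13, limma adjusted p = 0.00292). OASL (ENSG00000135114, chr12:121019111-121039242), which makes no 2-5A and enhances signalling by the RNA sensor RIG-I, was at 12.6, 14.3 and 13.9 FPKM in shNC libraries and at 33.1, 29.3 and 31.1 FPKM in shScamp1 libraries. It had the highest mean of the 10 genes in shNC cells. Its mean rose from 13.6 ± 0.881 to 31.2 ± 1.91 FPKM (SD, n = 3 per group), or 1.19 on the log2 scale (SE 0.08, limma adjusted p = 0.000660). Together the OAS genes were at 41.3 ± 0.558 FPKM in shNC and 116 ± 6.14 FPKM in shScamp1 cells (SD, n = 3 per group), on 363 to 3972 reads per gene and library.

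MX2 and MX1 are neighbours on the forward strand of chromosome 21. MX1 (ENSG00000157601, chr21:41420304-41459214), the cytoplasmic GTPase known for its action on influenza virus, was at 2.94, 2.95 and 2.78 FPKM in shNC libraries and at 16.3, 19.3 and 16.1 FPKM in shScamp1 libraries. The gap between the groups was wide compared with the spread in either. Its group mean rose from 2.89 ± 0.0953 to 17.2 ± 1.82 FPKM (SD, n = 3 per group; log2 fold change 2.53, SE 0.09, limma adjusted p = 0.000168), which is 5.97-fold. MX2 (ENSG00000183486, chr21:41361943-41409390), found at the nuclear envelope and known for its action on retroviruses, was at 0.754, 0.819 and 0.804 FPKM in shNC libraries and at 4.08, 4.95 and 4.15 FPKM in shScamp1 libraries. It was the lowest of the 10 genes in every library, and with 13047 exon bases, the longest of the 10, it was covered by 156 to 885 reads. The mean rose from 0.792 ± 0.0338 to 4.39 ± 0.487 FPKM (SD, n = 3 per group), or 2.33 on the log2 scale (SE 0.11, limma adjusted p = 0.000248). With a pseudocount of 1 FPKM in place of 0.1 this log2 fold change was 1.59. Summed MX transcripts were at 3.68 ± 0.0944 FPKM in shNC and 21.6 ± 2.31 FPKM in shScamp1 cells (SD, n = 3 per group).

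Ordered by log2 fold change, the genes fell into an upper run of OAS2, MX1, MX2, IFIT3 and IFIT1, from 2.29 to 2.55, and a lower run of OAS1, IFIT2, OAS3, OASL and IFIT5, from 0.82 to 1.47. The lowest 95% bound in the upper run was 2.05 and the highest bound in the lower run was 1.65. IFIT1 and OAS1 were the only neighbours in this order whose intervals did not overlap, a description of these values that was not tested. The runs cut across the families, since IFIT1 and IFIT3 stood apart from IFIT2 and IFIT5, and OAS2 from the other OAS genes. Genes of the upper run had shNC means of 0.792 to 3.96 FPKM, and those of the lower run 2.65 to 13.6 FPKM. Among all genes tested, the 10 ranked between place 54 and place 963 by log2 fold change, 5 of them within the first 100.

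**Figure D3:**
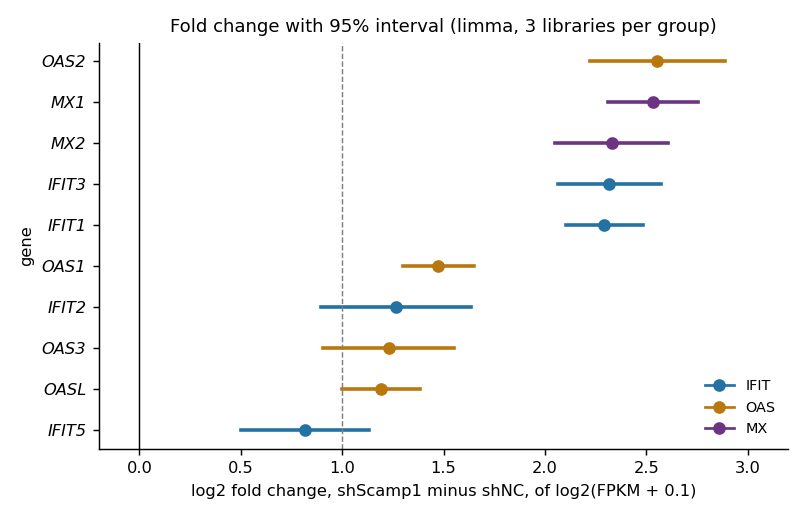
Log2 fold change of each gene, shScamp1 minus shNC, with its 95% interval from limma, colored by family and ordered by size, with a dashed line at the threshold of 1. OAS2, MX1, MX2, IFIT3 and IFIT1 lie between 2.29 and 2.55, and the other 5 genes between 0.82 and 1.47.

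The order of levels changed with the group. In shNC cells OASL was highest, followed by OAS3 and OAS1, IFIT5, IFIT3 and OAS2, then MX1, IFIT1 and IFIT2, and finally MX2. Neighbours whose ranges over the 3 libraries overlapped there were OAS3 with OAS1, IFIT3 with OAS2, MX1 with IFIT1, and IFIT1 with IFIT2. In shScamp1 cells the order was OAS1, OASL, OAS3, OAS2, IFIT3 and MX1, each overlapping the next, and then IFIT1, IFIT5, IFIT2 and MX2 without overlap. The highest mean was 17.2 times the lowest in shNC cells and 7.54 times in shScamp1 cells. Summed over the 10 genes, transcripts were at 59.8 ± 0.129 FPKM in shNC cells and 188 ± 10.2 FPKM in shScamp1 cells (SD, n = 3 per group), a ratio of 3.15. The OAS genes made up 69.1% of this sum in shNC cells and 61.6% in shScamp1 cells, the IFIT genes 24.7% and 26.9%, and the MX genes 6.16% and 11.5%.

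Replicates of shScamp1 differed more among themselves than those of shNC. The coefficient of variation was between 2.41% and 9.85% in shNC and between 6.12% and 19.5% in shScamp1 libraries, and was larger in shScamp1 for 9 of the 10 genes. Over all genes tested it was larger in shScamp1 for 74.5%, with medians of 6.39% and 14.8%. Replicate 2 of shScamp1, which stood apart in its counts and mitochondrial share, was the highest of the 3 for IFIT3, IFIT5, OAS2, OAS3, MX1 and MX2, by 0.25 to 0.46 on the log2 scale against the mean of the others. It was the lowest for IFIT1, IFIT2, OAS1 and OASL, by values from -0.40 to -0.13. The quartiles of this difference over all genes were -0.33 and 0.27, and when genes were split by length into 4 equal classes its median was -0.09, -0.21, -0.01 and 0.18 from the shortest to the longest. The 6 genes that were highest in replicate 2 have lengths of 2640 to 13047 bases and the other 4 of 3517 to 4947 bases, and the part of length was not tested. Without replicate 2, again 9 of the 10 genes were differentially expressed, with log2 fold changes of 2.40 for OAS2, 1.08 for OAS3, 0.68 for IFIT5 and 1.40 for IFIT2.

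**Figure D4:**
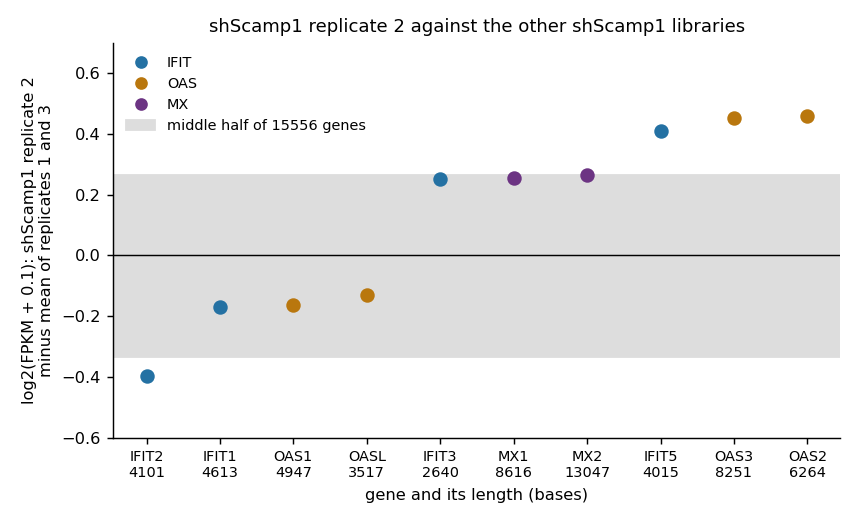
Difference of log2(FPKM + 0.1) between shScamp1 replicate 2 and the mean of shScamp1 replicates 1 and 3 for each gene, with its length in bases, against the range between the quartiles of all 15556 genes (grey band). OAS2, OAS3 and IFIT5 lie above the band and IFIT2 lies below it.

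Other genes share part of the same loci. LIPA, a lysosomal lipase gene on the reverse strand, spans IFIT1, IFIT2 and IFIT3 but shares exon bases only with IFIT2, 65 bases or 1.58% of its exons. LIPA was at 12.9 ± 0.321 FPKM in shNC and 14.2 ± 1.04 FPKM in shScamp1 cells (SD, n = 3 per group; log2 fold change 0.14, limma adjusted p = 0.257). AL353751.1 covers 8.68% of the exon bases of IFIT2 and had 0 or 1 read per library. The antisense gene AC004551.1 covers 1.86% of the exon bases of OAS1 and had 0 to 3 reads. AP001610.1, antisense to MX1 over 2.74% of its exon bases, had 1, 0 and 4 reads in shNC and 8, 9 and 11 reads in shScamp1 libraries. As strand-specific counting is not stated, reads of AP001610.1 and MX1 cannot be told apart where they overlap. Among all genes tested 2.42% were called higher and 0.746% lower. The nearest tested protein-coding genes on either side, with LIPA 9 in all, included 1 that was differentially expressed. This was RIPK4, a kinase gene 280155 bases beyond MX1, which rose from 7.76 ± 0.440 to 25.6 ± 0.716 FPKM (SD, n = 3 per group; log2 fold change 1.71, limma adjusted p = 0.000168). PTPN11 before OAS1 had a log2 fold change of 0.04 (adjusted p = 0.863), DTX1 after OAS2 of 0.28 (adjusted p = 0.0575) and BACE2 before MX2 of 0.17 (adjusted p = 0.245).

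The genes upstream of these effectors were examined by role, beginning with the interferons themselves. Of 22 interferon genes listed, 21 were in the table, 9 had no read in any library and 1, IFNE, passed the expression filter. IFNE, an interferon made constitutively by epithelia, was at 0.941, 1.51 and 1.14 FPKM in shNC libraries and at 2.55, 3.42 and 3.48 FPKM in shScamp1 libraries, on 22 to 75 reads. Its groups did not overlap, and its log2 fold change was 1.34 (SE 0.20, limma adjusted p = 0.00942), but 0.92 with a pseudocount of 1 FPKM, below the fold threshold. The interferons without a test had at most 12 reads in a library. IFNB1, the first type I interferon made in most infected cells, had 1, 0 and 0 reads in shNC and 1, 0 and 1 reads in shScamp1 libraries. IFNL1, a type III interferon of epithelia, had 1, 1 and 0 reads in shNC and 12, 0 and 5 reads in shScamp1 libraries. The groups overlapped for both, and a change of either was not detectable at this depth. IFNA1, a type I interferon with 35 reads in all, the most among those without a test, had 1, 2 and 6 reads in shNC and 8, 9 and 9 reads in shScamp1 libraries, without overlap.

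Among the receptor genes, none of the 4 tested was differentially expressed by limma or by voom on recovered reads. By limma 3 had an adjusted p under 0.05, all higher, where 8.82% of all genes tested did so, and the median log2 fold change was 0.65. The same number had an unadjusted p under 0.05, all higher. For this unadjusted limit the share over all genes was not taken, here and in the lists below. IFNAR1, a chain of the type I receptor, was at 7.22 ± 0.295 and 12.6 ± 1.90 FPKM in shNC and shScamp1 cells (SD, n = 3 per group; log2 fold change 0.78, limma adjusted p = 0.00903). IFNLR1, the chain particular to the type III receptor, had a log2 fold change of 0.76 (adjusted p = 0.0106). Their adjusted p was above 0.05 in 1 and 2 of 16 alternative analyses, at most 0.0502 for IFNAR1 and 0.0562 for IFNLR1, each time with an shNC library left out. The third, IFNGR1, a chain of the interferon gamma receptor, had a log2 fold change of 0.54 (adjusted p = 0.0408), and its adjusted p was above 0.05 in 10 of 16 alternative analyses, up to 0.148. The partner chains IFNAR2 and IL10RB, with 13 to 23 and 6 to 17 reads per library, were too low for the test.

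Of the genes that carry the signal from the receptors, STAT2 was differentially expressed. STAT2 rose from 5.07 ± 0.0879 to 11.8 ± 0.726 FPKM (SD, n = 3 per group; log2 fold change 1.20, limma adjusted p = 0.000510). IRF9, its partner in the complex, was at 0.754 ± 0.0682 and 1.13 ± 0.169 FPKM (SD, n = 3 per group), a log2 fold change of 0.52 that did not pass the test (adjusted p = 0.111). The kinases JAK1 (log2 fold change 0.12, adjusted p = 0.429) and TYK2 (-0.04, adjusted p = 0.767) did not pass it either. Among the 6 interferon regulatory factors tested 1 was differentially expressed, where 2.42% of all genes tested were called higher. This was IRF7, the amplifier of interferon production, which rose from 4.77 ± 0.289 to 12.9 ± 1.06 FPKM (SD, n = 3 per group; log2 fold change 1.42, limma adjusted p = 0.000547). IRF1 (0.46, adjusted p = 0.0811) and IRF3 (-0.21, adjusted p = 0.350) did not pass the test, and the list had a median log2 fold change of 0.13.

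None of the 7 negative regulators tested was differentially expressed by limma, and their median log2 fold change was 0.04. An unadjusted p under 0.05 was found for 3, of which 2 were higher. Voom on recovered reads called 1 of the 7, SOCS3, as lower. By limma SOCS3 had a log2 fold change of -1.12 (adjusted p = 0.0960) on 7 to 44 reads. USP18, which removes ISG15 from proteins and dampens receptor signalling, was just under the fold change threshold, at 4.23 ± 0.185 and 8.50 ± 0.813 FPKM (SD, n = 3 per group; log2 fold change 0.99, limma adjusted p = 0.00169), and crossed it in 3 of 16 alternative analyses. SOCS1 was too low for the test, with 5 to 18 reads in a library. Of the genes that act with 2-5A, the product of the OAS enzymes, ABCE1, an inhibitor of the pathway, had a log2 fold change of -0.01 (adjusted p = 0.924), and PDE12, which degrades 2-5A, one of -0.02 (adjusted p = 0.921). Neither of these 2 genes passed the test. Other genes that act with 2-5A are not reported here, so the 2 do not stand for their list.

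Of the 13 nucleic acid sensors and adaptors tested 2 were differentially expressed and 6 had an adjusted p under 0.05, all higher. Their median log2 fold change was 0.37. Over all genes tested, 2.42% were called higher, and 8.82% were higher with an adjusted p under 0.05. DDX58, which encodes RIG-I, rose from 3.56 ± 0.132 to 11.2 ± 1.24 FPKM (SD, n = 3 per group; log2 fold change 1.62, limma adjusted p = 0.000510). DHX58 stood at the fold change threshold (1.00, adjusted p = 0.0150) and lost the call in 9 of 16 alternative analyses. EIF2AK2, the kinase PKR that double-stranded RNA activates, had a log2 fold change of 0.60 (adjusted p = 0.0389), and ADAR, the editor of double-stranded RNA, one of 0.35 (adjusted p = 0.198). The adjusted p of EIF2AK2 was above 0.05 in 7 of 16 alternative analyses. In the list of other antiviral interferon-stimulated genes, RSAD2, CMPK2, XAF1 and EPSTI1 passed the filter of 0.5 FPKM only through shScamp1. Their means were 0.434, 0.461, 0.157 and 0.145 FPKM in shNC and 3.22, 2.31, 1.19 and 1.22 FPKM in shScamp1 cells. The count and median of the list therefore lean towards genes that are high in shScamp1 cells. Among the 29 tested, these included, 15 were differentially expressed, all higher, and the median log2 fold change was 1.05. The 3 most abundant of the 15 were ISG15, a ubiquitin-like modifier (121 ± 2.32 to 438 ± 29.4 FPKM, SD, n = 3 per group; log2 fold change 1.86, limma adjusted p = 0.000168), IFI6 (2.65) and SAMD9 (1.61, adjusted p = 0.00632). Of 10 interferon gamma targets listed 4 were tested, with a median of 1.05. GBP2 (1.52, adjusted p = 0.00117) and GBP4 (1.52, adjusted p = 0.00232) were differentially expressed, both higher. GBP1 (0.58, adjusted p = 0.0212, above 0.05 in 5 of 16 alternative analyses) and HLA-DRA (-0.33, adjusted p = 0.407) were not. CXCL9, CXCL10, CXCL11, IDO1, CIITA and GBP5 were too low for the test, with at most 81 reads in a library. IFNG itself had no read in any library.

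Relatives of the MX and IFIT genes outside the antiviral families were a separate list. None of the 3 tested was differentially expressed by limma or voom or had an adjusted p under 0.05 by limma, 1 (DNM1) had an unadjusted p under 0.05 by limma and an adjusted p of 0.0359 by voom, and their median log2 fold change was 0.07. DNM2, a dynamin of endocytosis, had a log2 fold change of 0.17 (adjusted p = 0.249), DNM1L, which divides mitochondria, of 0.07 (adjusted p = 0.693), and DNM1 of -0.65 (limma adjusted p = 0.140). DNM3, with 6 to 13 reads per library, and IFIT1B, with at most 1 read, were not tested.

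**Figure D5:**
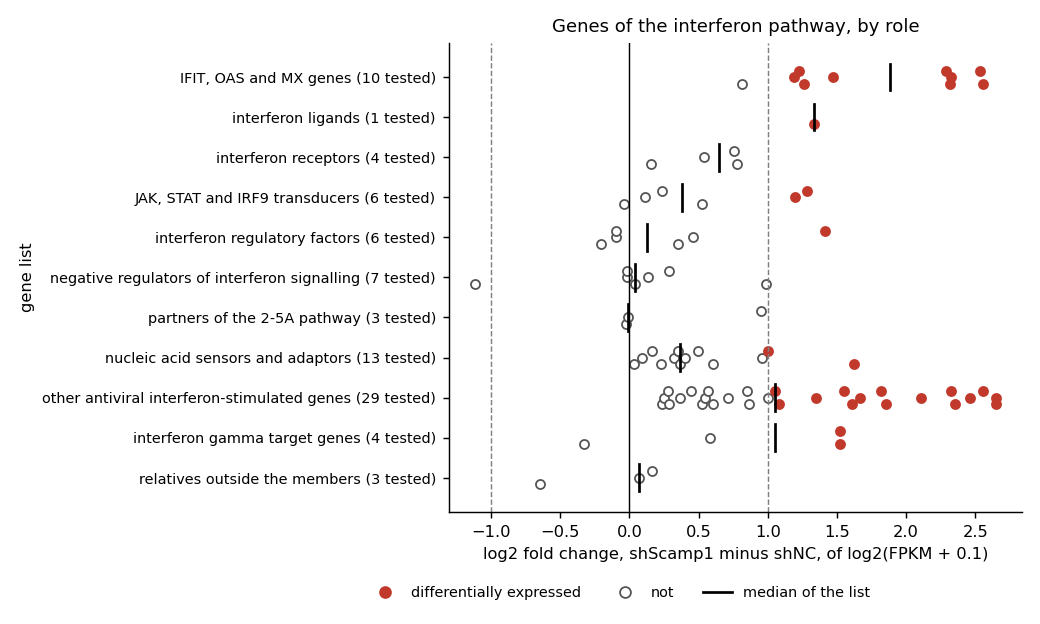
Log2 fold change, shScamp1 minus shNC, of the tested genes of each list (filled where differentially expressed, open where not, bars at list medians, dashed lines at the thresholds). The 10 effector genes lie between 0.82 and 2.55, whereas list medians run from -0.01 for partners of the 2-5A pathway to 1.34 for the single interferon tested.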

How the data were processed

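Processed FPKM values of 6 RNA-seq libraries were used, 3 of shNC and 3 of shScamp1 NCI-N87 cells. The authors deposited FPKM per gene with gene length and hg38 coordinates, which equalled GENCODE 29 for all 10 genes. The submitters' processing notes name HISAT2 2.0.5, featureCounts 1.5.0-p3 and DESeq2 1.20.0, and strand settings and treatment of shared reads are not given in the sources used here. FPKM times length gave whole reads for 100% of values. Log2(FPKM + 0.1) was fitted with limma 3.58.1 in R 4.3.3 (lmFit, eBayes with trend) for genes averaging 0.5 FPKM or more over the libraries, 15556 in number, and p-values were adjusted by Benjamini-Hochberg over all of them. The log2(FPKM + 0.1) scale understates the change of low genes, and intervals are 95%. No set test was run. Some genes under the naming rule below are not reported here.

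The 10 genes and the pathway lists were chosen with earlier results of these data known. Genes named are the 10, SCAMP1, a written list of signalling and related genes, the 3 most abundant differentially expressed genes of each list, and the 5 genes most alike in profile. IFNA1, IFNG, IFNGR1, SOCS3, some markers and the genes that share or border the loci were named after their values were seen. So were RSAD2, CMPK2, XAF1, EPSTI1 and the interferon gamma targets other than GBP2 and GBP4. Tables and plots were made in Python 3.11.15 with pandas 2.3.3, numpy 2.4.6 and matplotlib 3.10.9. Alternatives concerned the filter, pseudocount, trend and scaling, the genes tested, voom on recovered reads, a replicate block and leaving out each library.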

Additional observations from a re-analysis of the deposited data

How the results depend on the processing

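In all 16 alternatives, 15 planned and 1 chosen after seeing the data (reads outside mitochondrial genes as scale), 9 of the 10 genes were differentially expressed and each kept its direction. Among all genes 492 were differentially expressed, and 248 with a pseudocount of 1 FPKM, which shrinks the fold of low genes. Other alternatives gave up to 568, and leaving out each library in turn gave 364 to 540. The share of calls that were higher was 76.4%, and 65.2% with voom on recovered reads. Deviations of same-numbered libraries correlated at -0.035 to 0.067, which showed no sign of pairing by replicate number. With 3 libraries per group this cannot exclude that same-numbered libraries were prepared together. With the replicate number as a block, 389 genes and again 9 of the 10 were differentially expressed, and the adjusted p of IFIT5 was 0.0480. Log2 fold changes ranged over the alternatives from 1.99 to 2.35 for IFIT1, 1.04 to 1.40 for IFIT2, 2.09 to 2.38 for IFIT3, 0.68 to 0.91 for IFIT5, 1.41 to 1.53 for OAS1, 2.31 to 2.66 for OAS2, 1.08 to 1.32 for OAS3, 1.12 to 1.23 for OASL, 2.23 to 2.58 for MX1 and 1.59 to 2.45 for MX2. Pathway lists held 23 differentially expressed genes, and 17 to 25 over the alternatives. Depth limits the interferon genes, with at most 12 reads per library for those untested.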

Other observations

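Tested protein-coding genes outside the 10, those of the interferon lists included, were ordered by a Euclidean distance. It was taken between their log2(FPKM + 0.1) profile over the 6 libraries, centred on its mean, and the mean centred profile of the 10 genes. The 5 nearest protein-coding genes were VSIG10L (0.138), RIPK4 (0.171), ADGRF1 (0.179), TPRG1 (0.181) and LIPH (0.183), whereas the 10 genes themselves were at distances of 0.470 to 1.23. The log2 fold changes of these 5 nearest genes were 1.82, 1.71, 1.73, 1.74 and 1.71 in this order. They lie near the mean of the 10 genes, which the measure favours. TPRG1 passed the filter of 0.5 FPKM only through shScamp1, with means of 0.373 FPKM in shNC and 1.48 FPKM in shScamp1 cells. VSIG10L was at 4.19 ± 0.0835 FPKM in shNC and 15.2 ± 1.61 FPKM in shScamp1 cells (SD, n = 3 each). The distance is a description over 6 libraries of 2 groups.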
